A study of Homo sapiens with 4 samples.

Results

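A set of 9 genes of the Hedgehog pathway was followed through an siRNA experiment in HEK-293 cells, out of 24934 gene rows in the deposited expression table. They are the receptor PTCH1, the co-receptors BOC and GAS1, the ligand trap HHIP, the signal transducer SMO, the GLI inhibitor SUFU, and the 3 transcription factors GLI1, GLI2 and GLI3. All 9 were found in the table by their symbols, on 1 row each. The set was chosen by the low ratios of the FPKM of GLI2 and GLI3 to the control after siRNA treatment, so those ratios are a description and not a test. FPKM, the unit of the table, is the number of sequenced fragments divided by transcript length and library size.

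HEK-293 is an established human line from embryonic kidney with some neuronal features. Cells were transfected for 48 h with siRNA at 10 nM in a lipid reagent. A first culture received si4 and another si5, both designed against the zinc finger gene ZSCAN5A, a further one si1, designed against its paralog ZSCAN5B, and the control received a scrambled siRNA. A single stranded mRNA library was sequenced for each, 4 in all, so the differences below have no replicate spread behind them and carry no p-value.

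In Hedgehog signalling, a secreted ligand (SHH, IHH or DHH) binds PTCH1, which otherwise keeps SMO silent. BOC, CDON and GAS1 present the ligand to PTCH1, while HHIP captures it. Active SMO, acting in the primary cilium, releases the GLI factors from SUFU, and the GLI proteins then reach the nucleus, where GLI2 is mainly an activator, GLI3 mainly a repressor in its truncated form, and GLI1 an activator that is itself a target. PTCH1 and HHIP are targets as well, which makes them feedback inhibitors, and in the embryo the pathway patterns the neural tube and limbs and is active in the developing kidney.

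The siRNA target sequences are shown because a guide strand can lower other transcripts that match its seed, bases 2 to 8 of the guide. Each is written 5′ to 3′ as in the mRNA, with the stretch that pairs with the seed in capitals.
si4, against ZSCAN5A: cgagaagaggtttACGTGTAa
si5, against ZSCAN5A: aagctagtcatccACAAGAGa
si1, against ZSCAN5B: acgtgtgcaataaATCATTTa
In GRCh37 (hg19) the si4 site lies at chr19:56733332-56733352 and the si5 site at chr19:56733307-56733327, both on the minus strand in exon 6 of the 6 exons of ZSCAN5A. The si1 site lies at chr19:56701591-56701611, on the minus strand in exon 5 of the 5 exons of ZSCAN5B. None of the 9 genes held a si4 or si5 seed match in its 3′ UTR, whereas 3.36% and 11.9% of 11979 expressed genes with an annotated 3′ UTR did. The si1 seed match was present in 23.4% of those genes and, among the 9, in HHIP, at base 5373 of a 3′ UTR of 7314 bases.
HHIP, site of the si1 seed: ctaaggcatacccATCATTTa
Across their whole transcripts, the 9 genes differed from each of the 3 target sequences by at least 6 of 21 bases. Genes with the si4 seed match had a median log2 ratio of -0.29 in the si4 library against -0.01 for genes without it, with matches counted in the 3′ UTR. The same medians were -0.10 against -0.01 for si5 in its library and -0.06 against 0.01 for si1 in its library. The genes with a match numbered 402, 1428 and 2806 for si4, si5 and si1. Genes with and without a match were not matched for transcript length, which moved with the ratio across the whole table. Whether the seeds gave these differences was not tested. Outside the 3′ UTR, the transcript of PTCH1 holds 1 si4 seed match, and those of GLI3 and BOC hold 1 si5 seed match each.

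ZSCAN5A stood at 2.42 FPKM in the control, 0.730 in the si4 library, 0.713 in the si5 library and 2.53 in the si1 library. It was thus 30.2% and 29.5% of the control with its 2 siRNAs and 105% with si1. ZSCAN5B stood at 0.0903 FPKM in the control (15 fragments) and 0.0948 FPKM with si1 (16 fragments), which is 105% of the control (exact 95% interval for counting error 48.6% to 228%), so that its target was not lower in the library labelled ZSCAN5B knockdown, which is written si1 below. In the si4 and si5 libraries ZSCAN5B was at 36.6% and 73.4% of the control, from 6 and 17 fragments. The control held approximately 53700000 fragments, si4 58700000, si5 83000000 and si1 54600000, as estimated from the step sizes of the lowest FPKM values and the annotated lengths. Markers of the HEK-293 line (VIM, NEFL, NEFM, INA, PAX2, KRT8 and KRT18) summed to 565 to 676 FPKM, most of it VIM and KRT8. PAX2, a kidney transcription factor, was the lowest of them, at 1.16 FPKM in the control and 0.584, 0.615 and 0.608 with si4, si5 and si1. The markers of other cell types summed to 1.12 to 1.89 FPKM, nearly all of it COL1A1.

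The 9 genes covered a wide range of levels. In the control, SMO was the highest at 15.4 FPKM, followed by GAS1 at 7.17, SUFU at 6.34, PTCH1 at 5.30, GLI3 at 5.16, BOC at 2.01, GLI2 at 1.66, GLI1 at 0.653 and HHIP at 0.536. PTCH1 and GLI3 differed by little, and they changed places in the si1 library, as GLI1 and HHIP did in the si4 library, while every other neighbour kept its place in all 4. Of the 9 genes, 7 reached 1 FPKM and entered the comparisons below. GLI1 and HHIP stayed under 1 FPKM in all 4 libraries.

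**Figure D1:**
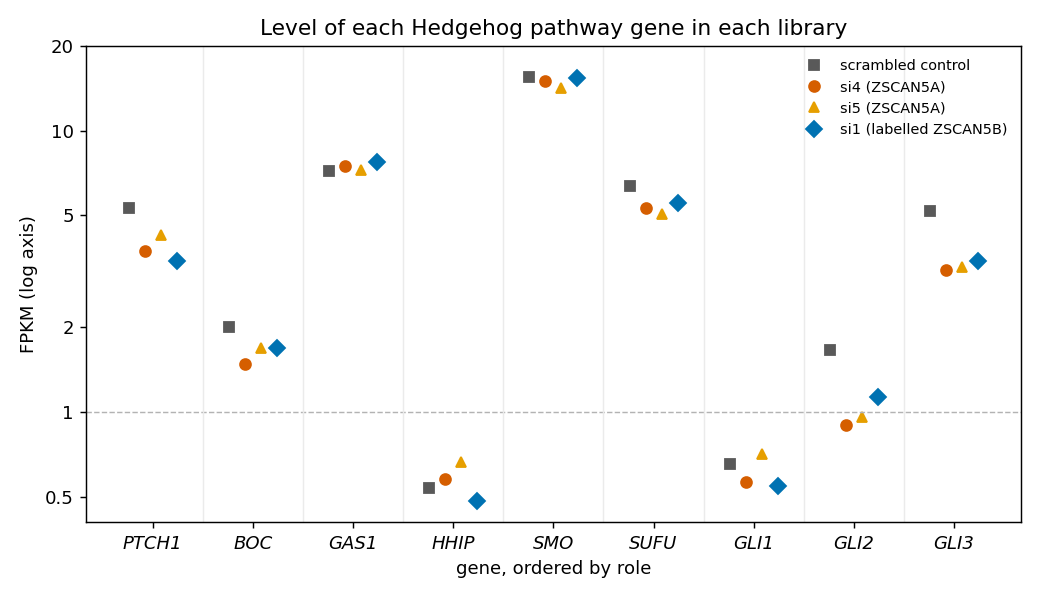
FPKM of the 9 genes on a log axis, 1 point for each of the 4 libraries, with a dashed line at 1 FPKM. The control squares of PTCH1, BOC, SUFU, GLI2 and GLI3 lie above all 3 siRNA libraries, the points of SMO and GAS1 stay close together, and GLI1 and HHIP lie under the line.

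GLI2, at chr2:121554867-121750229 of hg19, the build of the table, encodes the main activator of the pathway. Its level was 1.66 FPKM in the control, 0.901 in the si4 library, 0.958 in the si5 library and 1.13 in the si1 library, from approximately 638, 377, 568 and 439 fragments. All 3 siRNA libraries were below the control, and the siRNAs against ZSCAN5A gave the lowest values. Relative to the control, si4 gave 54.2% (95% interval 47.6% to 61.6%), si5 57.7% (51.4% to 64.7%) and si1 67.8% (59.9% to 76.6%). These are exact Clopper-Pearson intervals on the fragments, and they cover counting error only. Averaged over si4 and si5, GLI2 was 1.79-fold lower than the control, a log2 ratio of -0.84. In RNA from whole cultures, fewer cells that express a gene and less of its RNA per cell cannot be told apart.

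GLI3, at chr7:42000548-42276618, encodes the factor whose truncated form is the main repressor. Its level was 5.16 FPKM in the control, 3.19 in the si4 library, 3.26 in the si5 library and 3.43 in the si1 library, from approximately 2331, 1571, 2278 and 1576 fragments. The 3 siRNA libraries lay close together and well below the control. As a share of the control, si4 gave 61.7% (57.9% to 65.8%), si5 63.3% (59.7% to 67.1%) and si1 66.5% (62.4% to 70.9%). Averaged over si4 and si5, GLI3 was 1.60-fold lower, a log2 ratio of -0.68.

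GLI1, at chr12:57853918-57866047, is the factor most often read as a measure of pathway output. Its level was 0.653 FPKM in the control, 0.562 in the si4 library, 0.707 in the si5 library and 0.544 in the si1 library, from approximately 139, 131, 233 and 118 fragments. The si5 library was above the control and the other two were below it. The intervals of all 3 ratios included 100%, at 67.3% to 110% for si4, 87.4% to 135% for si5 and 64.7% to 107% for si1. A value as low as that of GLI3 lay outside the si4 and si5 intervals and inside the si1 interval.

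PTCH1, at chr9:98205264-98279247, is both the ligand receptor and a target of the GLI factors. Its level was 5.30 FPKM in the control, 3.73 in the si4 library, 4.25 in the si5 library and 3.43 in the si1 library, from approximately 2469, 1898, 3057 and 1623 fragments. All 3 siRNA libraries were below the control, with si1 the lowest and si5 the nearest to it. As a share of the control, si4 gave 70.4% (66.3% to 74.8%), si5 80.2% (76.0% to 84.6%) and si1 64.7% (60.7% to 68.9%). The interval of si5 lies above those of the other two siRNAs.

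The co-receptor BOC, at chr3:112931375-113006305, stood at 1.48, 1.69 and 1.69 FPKM with si4, si5 and si1 and at 2.01 in the control. All 3 siRNA libraries were lower, at 73.6%, 84.2% and 84.2% of the control. GAS1, at chr9:89559277-89562104, a membrane-anchored co-receptor, stood at 7.48, 7.25 and 7.71 FPKM with the 3 siRNAs and at 7.17 in the control. It was the only one of the 7 genes over 1 FPKM to lie above the control in all 3 siRNA libraries, at 104%, 101% and 108%, and each of these intervals included 100%. HHIP, at chr4:145567148-145659881, stood at 0.579, 0.664 and 0.482 FPKM with si4, si5 and si1 and at 0.536 in the control. Its si5 value was 124% of the control (107% to 144%), while the si4 and si1 intervals included 100%. The si1 value was the lowest of the 4 libraries at 90.0% of the control (75.8% to 107%). HHIP holds an si1 seed match, and whether that site lowered HHIP was not tested. PTCH1 and GLI1, which hold no si1 seed match, were also lowest with si1.

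SMO, at chr7:128828713-128853385, stood at 15.1, 14.2 and 15.4 FPKM with si4, si5 and si1 and at 15.4 in the control. Its si5 value was 91.6% of the control (87.6% to 95.8%), and the si4 and si1 intervals included 100%. SUFU, at chr10:104263719-104393214, stood at 5.32, 5.05 and 5.54 FPKM with the 3 siRNAs and at 6.34 in the control. It was lower in all 3 siRNA libraries, at 84.0%, 79.7% and 87.4% of the control, and none of these intervals included 100%.

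**Figure D2:**
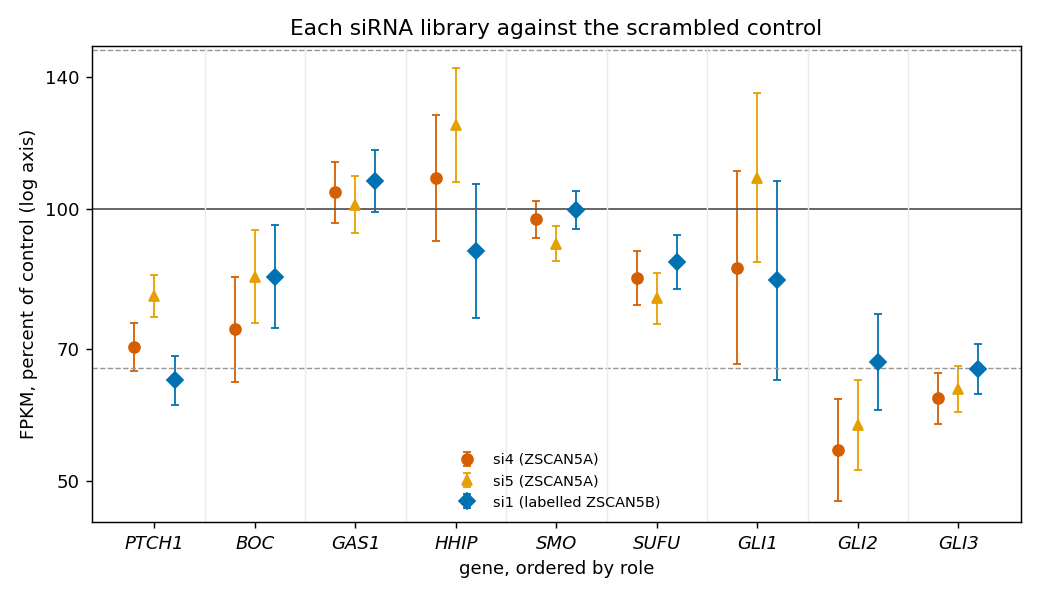
FPKM in each siRNA library as a percent of the scrambled control, on a log axis, with exact 95% intervals for counting error only and dashed lines at a 1.5-fold difference in either direction. GLI2 and GLI3 lie lowest with si4 and si5, at 54.2% to 63.3%, PTCH1 is lowest with si1, at 64.7%, and SMO and GAS1 lie near 100%.

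A gene was counted as past the limit when the ratio exceeded 1.5-fold and some library compared had 1 FPKM or more. For si4 and si5 averaged against the control, GLI2 and GLI3 were past the limit on the lower side among the 7 genes tested, and none was on the higher side. Over all 12993 genes tested, 3.11% were past it on the lower side and 0.677% on the higher side. As these ratios chose the set, nothing is read from that difference, and neither gene was past the limit after the correction for length and GC content that is given with the lengths. With si1 against the control, GLI3 and PTCH1 of the 7 were past it on the lower side and none on the higher side, beside 3.17% and 0.844% of 12921 genes. GLI3 was only just past the limit there, at 66.5% of the control, and GLI2 was just short of it, at 67.8%. Of the 7 genes, 6 were below the control in all 3 siRNA libraries at any size of difference and 1 was above it in all 3, beside 36.2% and 30.1% of 12983 genes. The 6 include GLI2 and GLI3, which chose the set, and SMO, whose si1 value was 99.9% of the control. All 3 ratios share a single control library, so its own deviation enters each of them.

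Between 2 siRNAs against the same target the levels also differed. Over 9974 genes at 0.5 to 20 FPKM in the control, si4 and si5 differed by a median of 0.13 on the log2 scale, and 95% of these genes differed by less than 0.52. For GLI2 and GLI3 the si4 minus si5 difference was -0.09 and -0.04, for PTCH1, BOC and HHIP it was between -0.20 and -0.19, and for SMO, SUFU and GAS1 between 0.05 and 0.09. GLI1 differed most, by -0.33. GLI2 and GLI3 were therefore among the members on which si4 and si5 gave nearly the same value.

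The si4 and si5 mean was also set against si1, which leaves the control out. None of the 7 genes was past 1.5-fold in either direction, beside 0.683% of 12888 genes on the lower side and 0.628% on the higher side. GLI2 was the lowest of the 7 at 82.5% of the si1 level, with si4 at 80.0% (69.5% to 91.9%) and si5 at 85.1% (75.0% to 96.6%). GLI3 was at 94.0%. PTCH1 was the one of the 7 that was higher with si4 and si5, at 116% of si1, with si4 at 109% (102% to 116%) and si5 at 124% (117% to 132%). HHIP was at 129% of si1 and GLI1 at 117%.

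The genes with low ratios also had long transcripts. The annotated transcript of GLI2 has 7136 bases and 61.5% GC, that of GLI3 has 8405 bases and 51.5% GC, and that of PTCH1 has 8662 bases and 52.4% GC, which puts them longer than 88.1%, 92.6% and 93.5% of the expressed genes. BOC has 4574 bases and SUFU 5016. SMO has 3977 bases and GAS1, a gene of 1 exon, 3145, and these are the 2 shortest transcripts among the 7 and the 2 genes nearest to or above the control. HHIP has the longest transcript of the 9, with 9937 bases and 36.9% GC.

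Length moved with the ratio across the whole table. With si4 and si5, the median log2 ratio went from 0.17 in the class of the shortest transcripts to -0.13 in the class of the longest, of 10 classes of like size, and the share past the limit on the lower side went from 1.53% to 7.84%. With si1 the median went from 0.17 to -0.15 and the share from 1.78% to 8.92%. When the median of genes of like length and GC content was subtracted, none of the 7 genes was past 1.5-fold in either comparison. With si4 and si5 the median subtracted was -0.29 for GLI2 and -0.36 for GLI3 and PTCH1. By length alone, the median was -0.11 in the class of GLI2 and -0.13 in that of GLI3 and PTCH1. The rest of the amount subtracted goes with the GC classes within those length classes. GC content without length was not examined. GLI2 with si4 and si5 then stood at 68.4% of the control, a log2 ratio of -0.55 in place of -0.84, and 5 of the 248 genes of its class were lower than it. GLI3 stood at 80.5%, with 33 of 248 lower, and PTCH1 at 96.9%, with 102 of 248 lower. With si1, GLI2, GLI3 and PTCH1 stood at 80.8%, 85.7% and 83.3% after this correction, with 24, 47 and 37 of 247 genes of their classes lower. The low ratios of GLI2 and GLI3 chose the set, so their places in these classes are a description and not a test. SMO moved from 94.5% to 105% with si4 and si5, and SUFU from 81.8% to 94.8%. All 3 siRNA libraries share the control in this trend, and its cause was not tested.

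**Figure D3:**
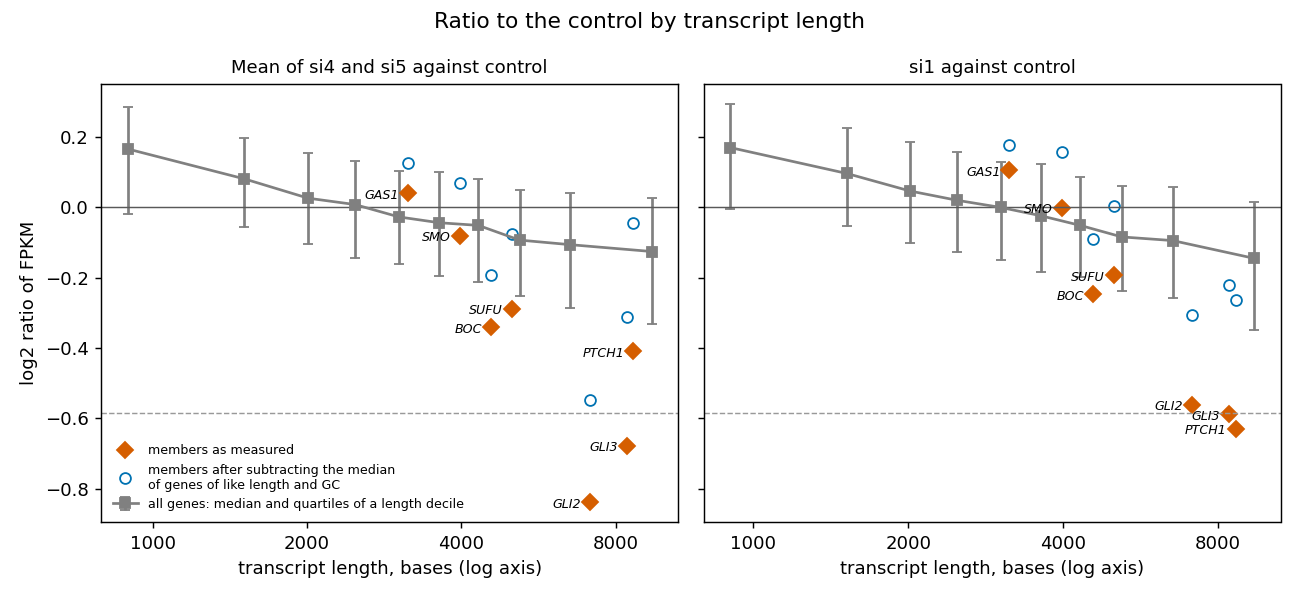
Log2 ratio to the control against transcript length in bases on a log axis, for the mean of si4 and si5 (left) and for si1 (right). Gray squares with bars are medians and quartiles of all genes by length class, diamonds are the 7 members as measured, open circles the same members after the correction, and the dashed line is the 1.5-fold limit, which no open circle passes.

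The ligands themselves were at very low levels in all 4 libraries. SHH stood at 0.0624 FPKM in the control and at 0.0914, 0.105 and 0.0982 with si4, si5 and si1, from 16, 25, 41 and 25 fragments. IHH was between 0.0534 and 0.147 FPKM and DHH between 0.0181 and 0.0389, with at most 19 fragments in any library. The intervals of the 3 SHH ratios included 100%, as that from 73.5% to 287% with si4. IHH with si5 stood at 36.4% of the control (16.1% to 82.9%), from 11 fragments against 19, and its si4 and si1 intervals included 100%.

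The other genes of the pathway were taken from a list of 91 genes by role, with the 9 included. With si4 and si5, 73 were tested, of which 54 were lower than the control and 19 higher, with a median log2 ratio of -0.19, beside -0.02 over all genes. Of the 73, 5 were past 1.5-fold, all lower, namely GLI2, GLI3, CDON, SCUBE3 and CCND1, beside 3.11% of all genes on the lower side, and the first 2 of these chose the set. With si1, 53 of 74 were lower, the median was -0.15 beside -0.01, and 4 were past the limit, namely GLI3, PTCH1, CDON and SCUBE3, beside 3.17% of all genes. Without the 9 members, 48 of 66 genes were lower with si4 and si5 and 47 of 67 with si1, and 3 and 2 of them were past the limit, which is near the shares of all genes past it. Over all genes, 53.3% were lower with si4 and si5 and 51.5% with si1.

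Upstream of the receptor, SCUBE3, a secreted protein of a family that helps release the ligand, stood at 1.06 FPKM in the control and at 0.465, 0.624 and 0.681 with si4, si5 and si1. These are 43.7%, 58.6% and 64.0% of the control. The acyltransferase HHAT and the ligand transporter DISP1 were within the limit, with log2 ratios of -0.13 and -0.09 for si4 and si5. CDON, the co-receptor related to BOC, stood at 4.43, 3.16, 2.60 and 2.86 FPKM in the same order. The siRNA libraries were at 71.5%, 58.8% and 64.7% of the control, so that with si4 alone it was not past the limit. Its 3′ UTR holds 1 si5 seed match and 1 si1 seed match, and that of SCUBE3 1 si1 seed match.
CDON, site of the si5 seed: gctgacggattttACAAGAGt
CDON, site of the si1 seed: ccgctcccactgtATCATTTc
SCUBE3, site of the si1 seed: cctaataagtgcaATCATTTt
Whether these sites lowered CDON or SCUBE3 was not tested.

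At the level of SMO and its partners, 6 of 8 genes tested were lower with si4 and si5 and none was past the limit. EVC, a ciliary partner of SMO, was lowest at a log2 ratio of -0.46, and GPR161, a ciliary receptor that holds the pathway off, was highest at 0.22. Among the 19 genes that regulate the GLI proteins, which include the kinases, adaptors and ubiquitin ligases that set their processing, 16 were lower and 3 higher in the si4 and si5 mean, the median log2 ratio was -0.16 and none was past the limit. BTRC, the adaptor of the ligase that starts GLI3 truncation, was lowest at -0.29, close to SUFU at -0.29, and CUL1 highest at 0.07. Beside these roles, 53.3% of all genes were lower with si4 and si5, with a median of -0.02.

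Of the 16 target genes tested with si4 and si5, 15 were lower and 1 higher, with a median of -0.24, and with si1 15 of 17 were lower, with a median of -0.16. Over all genes, 53.3% were lower with a median of -0.02, and with si1 51.5% with a median of -0.01. The counts by role were not corrected for length and GC content. CCND1, which encodes cyclin D1, was the only target past the limit with si4 and si5. Its level was 24.7 FPKM in the control, 7.09 in the si4 library, 18.0 in the si5 library and 22.4 in the si1 library, so that si4 decided the call. Without si4, its value with si5 was 72.9% of the control, within the limit. BMP4, a secreted signal, was the highest with si4 and si5 at 0.04, and with si1 it was OLIG2, a neural tube factor, at 0.33. PTCH1 was the lowest target with si1, at -0.63. Set against si1, CCND1 was the only gene of the list past the limit with si4 and si5, at -0.84.

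The genes of transport in the cilium, the organelle in which SMO acts, were more often higher than the control. With si4 and si5, 12 of 17 were higher and 5 lower, with a median of 0.10, and with si1 11 were higher and 6 lower, with a median of 0.07. Over all genes, 53.3% were lower with si4 and si5 and 51.5% with si1. None of the 17 was past the limit in either comparison as measured. After the correction for length and GC content, KIF3A was past it on the lower side with si4 and si5. DYNC2H1, the retrograde motor, was highest with si4 and si5 at 0.40, and KIF3A, a subunit of the anterograde motor, lowest at -0.55. INPP5E, a ciliary phosphatase, was lowest with si1 at -0.30. DYNC2H1 has a transcript of 13683 bases, longer than that of any of the 9 members, with a GC content of 38.3%, and stood at 137% of the control with si4 and 127% with si5.

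The zinc finger genes related to GLI by sequence, ZIC1 to ZIC5 and GLIS1 to GLIS3, gave 3 genes over 1 FPKM. ZIC2, ZIC5 and GLIS2 were all lower in both comparisons and none was past the limit. Their log2 ratios with si4 and si5 lay between -0.41 (GLIS2) and -0.19 (ZIC5), and with si1 between -0.37 (ZIC2) and -0.10 (GLIS2).

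**Figure D4:**
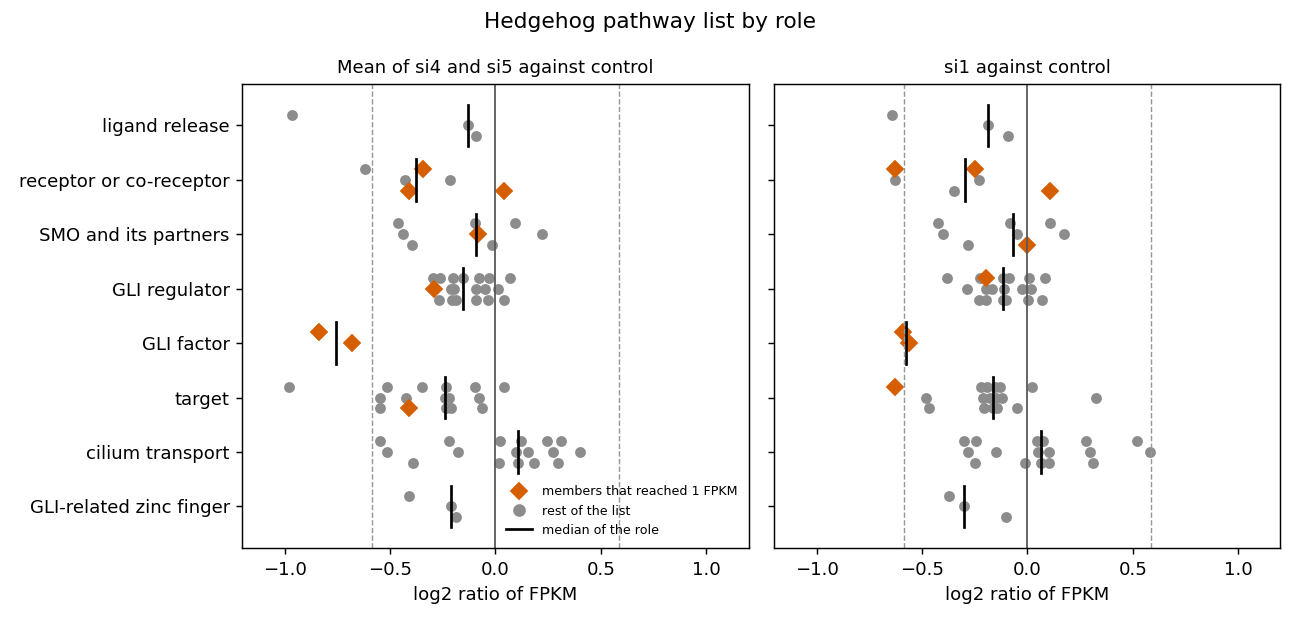
Log2 ratio of FPKM to the control for the genes of the pathway list over 1 FPKM, by role, for the mean of si4 and si5 (left) and for si1 (right), with the median of each role as a black bar and dashed lines at 1.5-fold. The GLI factor role holds only GLI2 and GLI3, which chose the set, since GLI1 was under 1 FPKM, and its position is a description. Cilium transport is the only role with a median above 0 on both sides.

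The genes most like GLI2 were sought as those with the smallest of the largest differences over the 3 log2 ratios, among 12561 genes of at least 1 FPKM in the control. NPTXR, a neuronal pentraxin receptor, was nearest, within 0.01 in every library. Its level was 4.40 FPKM in the control and 2.38, 2.54 and 3.00 with the siRNAs in the order si4, si5, si1. PDDC1 and LOC731275 followed, each within 0.09, and 5 genes in all lay within 0.1. For GLI3, MTL5, ADAM19 and ADAMTS17 were nearest, within 0.02 to 0.04, and 29 genes lay within 0.1. ADAM19 and ADAMTS17 are metalloproteases, and ADAM19 stood at 3.38 FPKM in the control and at 2.08, 2.08 and 2.32 with the siRNAs. With 3 ratios that share a control, such likeness over 4 libraries is a description only.

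Promoter windows of the members, 250 bases before to 50 after a start site, were taken from RefSeq (GRCh38.p14), which gave 13 windows for 7 of the 9 genes. GLI1 and GLI3 were not matched. The GLI binding motif GACCACCCA was searched on both strands, as TGGGTGGTC on the other. It was found in 1 window, that of PTCH1 at chr9:95509217-95509516 on the minus strand, starting at position -172 from the start site, while 0.236% of 35116 windows hold it. Its 7-base core CCACCCA, which any full match contains, was found in that window and in 1 of GLI2, chr2:120735618-120735917 on the plus strand, at position -164, and 9.19% of all windows hold it. Both are shown 5′ to 3′ along the gene, with the match in capitals.
PTCH1: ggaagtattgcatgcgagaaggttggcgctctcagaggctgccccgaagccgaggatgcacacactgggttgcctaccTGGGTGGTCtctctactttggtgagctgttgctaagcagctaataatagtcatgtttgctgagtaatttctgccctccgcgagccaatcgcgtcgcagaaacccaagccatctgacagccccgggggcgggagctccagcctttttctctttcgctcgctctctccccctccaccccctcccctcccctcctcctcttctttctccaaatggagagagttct
GLI2: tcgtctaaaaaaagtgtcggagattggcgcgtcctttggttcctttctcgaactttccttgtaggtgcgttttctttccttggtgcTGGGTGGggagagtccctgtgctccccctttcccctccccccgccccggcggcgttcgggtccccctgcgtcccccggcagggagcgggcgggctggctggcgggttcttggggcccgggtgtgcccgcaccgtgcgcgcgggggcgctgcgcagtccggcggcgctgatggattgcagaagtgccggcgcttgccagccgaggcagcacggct
The PTCH1 window has 57.0% GC and the GLI2 window 68.3%. A match of letters is a description and not a binding site.

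Some rows of the table overlap a member, and whether strand was used in counting is not given in the sources used here, so fragments of overlapping rows cannot be told apart with certainty. LOC100507346 overlaps PTCH1 and stood at 1.24 FPKM in the control, LOC646576 overlaps HHIP at 1.03 and WDR52 overlaps BOC at 1.10. ARHGAP9, which overlaps GLI1, was below GLI1. GLI2, GLI3, SMO, SUFU and GAS1 overlap no other row.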

How the data were processed

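Values were those of 4 libraries from HEK-293 cells, 1 for each siRNA and 1 for the control. The authors deposited 1 table of FPKM values per gene and library, made per the labels with CASAVA 1.8.2, Trimmomatic 0.30, TopHat2 2.1.0 and Cufflinks 2.2.1 on hg19. Labels and paper name different mRNA kits. FPKM values were used as deposited, as ratios without a pseudocount. Members and lists were chosen with earlier results of these data known.

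FPKM keeps no read totals. The commonest ratios of low FPKM values to the control gave depths of 1.09, 1.54 and 1.02 times the control for si4, si5 and si1. With these depths, 70.1% of 1745 genes with values under 0.1 FPKM had values in the ratio of whole numbers (tolerance 0.05%, no number above 40). Fragments behind a value follow from these depths and transcript lengths and are approximate. The 95% intervals of their ratios are exact Clopper-Pearson intervals for counting error only, and approximate in so far as the fragments are.

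A gene was past the limit when the ratio exceeded 1.5-fold, some library compared had 1 FPKM or more and neither side was 0. The study analysed si4 and si5 as a group. Here the mean FPKM of si4 and si5 was set against the control, and si1 against the control. Named genes were the 9 members, both ZSCAN5 genes, and of the pathway list every gene past the limit and the lowest and highest of each role, apart from 1 that is not reported here, plus the 3 genes nearest to GLI2 and to GLI3. HHAT, DISP1, SHH, IHH, DHH, ZIC2, ZIC5 and GLIS2 are named as whole roles, and the overlapping rows by position.

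Transcript length, GC content and 3′ UTRs came from GENCODE 44 lifted to GRCh37, for the longest canonical transcript of a symbol. Of 12983 genes over the limit, 95.6% had a match, which for 1188 came from a RefSeq synonym. The correction subtracted the median log2 ratio of genes in the same of 10 length classes and 5 GC classes. Promoters were RefSeq windows of GRCh38.p14. Python 3.11.15, NumPy 2.4.6, pandas 2.3.3, SciPy 1.17.1 and matplotlib 3.10.9 were used. On simulated data for si4 and si5 against the control, 200 of 200 changed genes among 11175 were recovered, and fragments were exact for 1214 of 1308 genes. The changed genes were set 2-fold apart at 2 FPKM or more in the control, with counting error only. Smaller changes, lower levels and deviations of a whole library were thus not covered. The alternatives were no expression limit, a pseudocount of 0.1 or 1 FPKM, median-ratio or upper-quartile scaling, a fold limit of 2 or, chosen after seeing the data, 1.4, the length and GC correction, and si4 or si5 alone or both.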

Additional observations from a re-analysis of the deposited data

How the results depend on the processing

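No paired analysis was possible because each siRNA and the control have 1 library. The 2 members past 1.5-fold with si4 and si5 against the control became 0 with a pseudocount of 1 FPKM, with a fold limit of 2 and with the length and GC correction. GLI2 and GLI3 remained in every other alternative. The 2 members past it with si1 became 1, PTCH1, with a pseudocount of 0.1 FPKM and with median-ratio scaling, and 0 with a pseudocount of 1, a fold limit of 2 and the length and GC correction, and with a fold limit of 1.4 they became 3, with GLI2 added. The 5 genes of the pathway list past the limit with si4 and si5 became 13 without an expression limit, 11 lower and 2 higher. They were 1 with a pseudocount of 1, 0 with a fold limit of 2 and 10 with a fold limit of 1.4. With the length and GC correction they were 3, namely CCND1, SCUBE3 and KIF3A, without GLI2, GLI3 and CDON. They were 9 with si4 alone and 3 when both siRNAs had to pass. With si5 alone they were 6, without CCND1 and with FOXF2 and TULP3, named after their values were seen. The 4 with si1 became 8 without an expression limit, 7 lower and 1 higher. They were 2 with a pseudocount of 0.1, 0 with a pseudocount of 1 and 0 with a fold limit of 2. With a fold limit of 1.4 they were 7, 5 lower and 2 higher, and with the length and GC correction 0. With median-ratio scaling they stayed at 4, but 3 lower and 1 higher, without GLI3. A pseudocount of 1 pulls the ratios of genes near 1 FPKM toward 1 by its construction. The cause of the trend with length was not tested, and no alternative was run with a correction for length alone or for GC content alone. Set against si1, 0 of the 7 members were past the limit with si4 and si5 in every alternative run, and no test was run on these ratios. GLI1 changed sign between si4 and si5 (log2 ratios of -0.22 and 0.11), and SMO in both comparisons and SUFU with si1 changed sign under the correction. SMO with si1 also changed sign under median-ratio scaling. GLI1 rests on approximately 118 to 233 fragments in a library, HHIP on 261 to 547, and the ligands on at most 41.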
